A study of Mus musculus with 17 samples.

Results

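The comparison of untreated AB12 tumors at d10 with untreated tumors at d6 rests on 8 of the 17 tumors that were sequenced, chosen by their labels for treatment and day, and it covers all genes. AB12 is a murine mesothelioma cell line, a single line and so a model of 1 tumor, and 100000 of its cells had been injected intraperitoneally into BALB/c mice, all female and 8 weeks old. None of the 8 mice was treated, and each gave 1 tumor, so that 3 tumors were taken at d6 and 5 at d10. The remaining 9 tumors came from untreated mice at d14 or from mice given anti CTLA-4, and only the former are used here, as a description. The comparison addresses how the expression program of an untreated tumor moved between an early and a middle day of growth, apart from the genes of T cells and of type I interferon.

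The peritoneal cavity is lined by mesothelial cells and holds its own resident macrophages, which depend on the transcription factor Gata6, together with eosinophils, mast cells and B cells. A growing tumor recruits monocytes that become macrophages, remodels its matrix through metalloproteinases and acquires vessels and fibroblasts. RNA from a whole tumor mixes the AB12 cells with all of these, and a lower value cannot tell fewer cells of a type from less RNA per cell.

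Expression was measured as read counts per gene, and levels are given as normalized CPM, a library-size unit computed from reads in genes after TMM scaling of the libraries. Total counts ranged from 46371577 to 52814004 at d6 and from 51159050 to 88029944 at d10. In a principal component analysis of the 8 tumors the first component held 49.5% of the variance and the second 25.5%, and d10 replicates 4 and 5 stood apart from d10 replicates 1 to 3 on both. When these parts of the d10 group were compared directly, 1366 of 17321 genes (7.89%) differed, 313 of them higher (1.81%) and 1053 lower (6.08%) in replicates 4 and 5, and 574 genes differed among protein coding genes alone. The labels give no reason for that split. Libraries of the study were sequenced on either of 2 Illumina instruments (NextSeq or NovaSeq), which of them ran each library is not given in the sources used here, and its part in the split and in the comparison of the days was not tested. Many of the genes named below whose values or calls differed between the parts are given with both. Defining markers of macrophages, mesothelium, endothelium and fibroblasts were detected in all 8 tumors, whereas the pancreatic marker Cpa1 had no count and the liver marker Alb had a CPM of at most 0.0593. Other genes of the liver list were detected, with a count for 14 of 16 members. The summed level of that list was 11.7 to 12.2 CPM at d6. It was 24.4, 28.0 and 12.6 CPM in d10 replicates 1 to 3 and 3.23 and 2.20 CPM in replicates 4 and 5. The summed level of the adipocyte list was 45.4 to 128 CPM at d6 and at most 98.7 CPM at d10, and that of the red blood cell list 21.4 to 27.6 and 13.6 to 87.2 CPM.

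A gene was called when its adjusted p-value in edgeR was below 0.05 and its fold change exceeded 2. At d10, 1257 of 16866 genes tested (7.45%) were called, 808 higher (4.79%) and 449 lower (2.66%), of which 721 and 318 were protein coding. Of the 1257 calls, 885 (70.4%) were made in the same direction both with d10 replicates 1 to 3 alone and with replicates 4 and 5 alone, comparisons that share the d6 tumors. Replicates 1 to 3 alone gave 946 genes higher (5.73%) and 504 lower (3.05%), and replicates 4 and 5 alone 1240 higher (7.41%) and 1554 lower (9.29%). By adjusted p alone, whatever the fold change, 1767 genes were higher (10.5%) and 1186 lower (7.03%). Without d6 replicate 1 or 3, 810 and 819 genes were called. The median log2 fold change over all genes tested was 0.03. The values of the 3 d6 tumors and the 5 d10 tumors did not overlap for 28.4% of genes.

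Among the genes named for the size of their change, Gc, Alox15, Retnla and F5 fell, and Atp6v0d2, Hal, Abca1, Clec4n, Clec4d and Mmp12 rose. The rule that named them required no overlap between the days, so a lack of overlap in these genes is no evidence of a change. Lists of genes for eosinophils and type 2 responses, resident peritoneal macrophages, dendritic cells and CC chemokines held more members called lower than higher. Lists for matrix proteases, collagens, MHC class II, scavenger macrophages, mast cells and the WNT, Hedgehog and Notch pathways held more called higher.

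**Figure D1:**
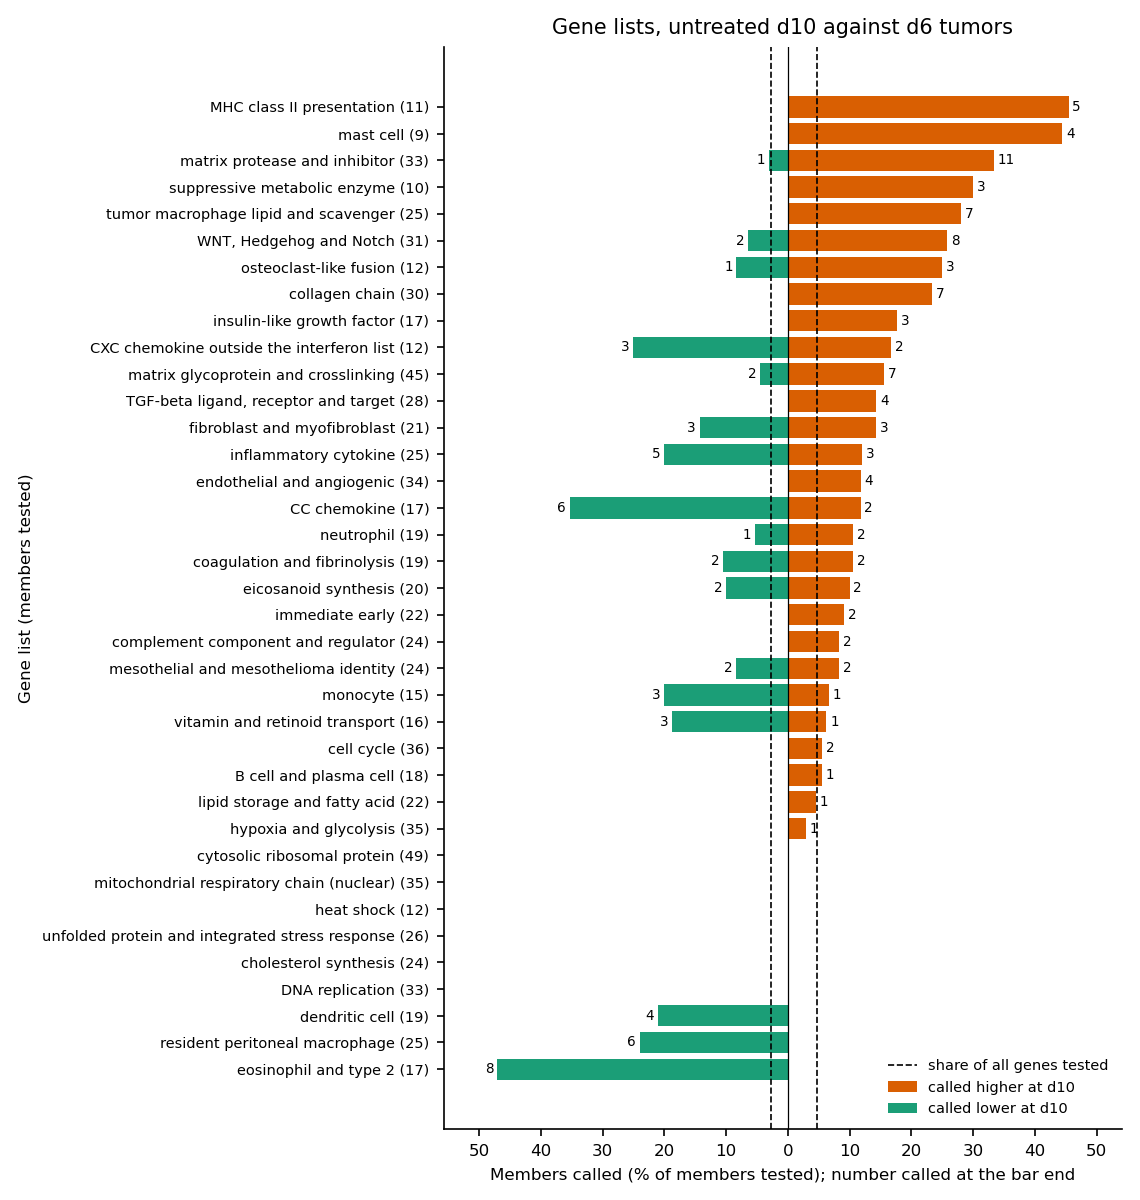
Share of the tested members of each gene list drawn that was called higher (right) or lower (left) at d10 against d6, with the number called at the end of each bar. The T cell, cytotoxic and type I interferon lists, the lists of other tissues such as liver and the lists added later are not drawn. Dashed lines mark the shares of all 16866 genes, 4.79% higher and 2.66% lower, and the eosinophil and type 2 list reached 8 members lower of 17 tested.

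Of the 18 genes of the eosinophil and type 2 list, 17 were tested, 8 were called lower and none higher, against the 2.66% of all genes called lower. The median log2 fold change of the list was -1.46. Its summed level lay between 601 and 679 CPM at d6 and between 186 and 333 CPM at d10. The same list had 8 members lower with d10 replicates 1 to 3 and 11 with replicates 4 and 5, comparisons in which 3.05% and 9.29% of all genes were called lower, and 5 when d6 replicate 1 or 3 was left out.

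Alox15, on chr11:70344152-70352031 of GRCm38, encodes a lipoxygenase that oxygenates arachidonic acid and is abundant in resident peritoneal macrophages and eosinophils. Its level was 218, 331 and 288 CPM in the d6 tumors and 34.2, 24.1, 9.83, 14.3 and 11.3 CPM in the d10 tumors. The log2 fold change was -3.90 ± 0.38 (SE), with an adjusted p of 0.00035 in edgeR, a 14.9-fold lower level. The change was -3.62 with d10 replicates 1 to 3 and -4.45 with replicates 4 and 5. Alox5, the lipoxygenase of leukotriene synthesis, also fell, from 12.4 ± 1.82 CPM (SD, n = 3) to 4.28 ± 1.67 CPM (SD, n = 5). Alox12, a platelet and epithelial lipoxygenase, rose by 1.65 ± 0.41 on the log2 scale at levels below 1 CPM, and it was not called without d6 replicate 2 (1.39) or 3 (1.46).

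Ccr3, the eotaxin receptor by which eosinophils are recruited, was at 22.9, 20 and 19.9 CPM at d6 and at 8.23, 10.2, 3.42, 4.58 and 3.98 CPM at d10. The groups did not overlap, and the log2 fold change was -1.78 ± 0.33 (adjusted p = 0.0061, edgeR). Il5ra, the receptor chain for the eosinophil growth factor IL-5, fell by 1.77 ± 0.38 on the log2 scale, and Siglecf, a lectin of the eosinophil surface, by 1.32 ± 0.31. Without d6 replicate 3 neither was called, at -1.53 for Il5ra and -1.14 for Siglecf, and Siglecf was also lost without d6 replicate 1, at -1.40. The eosinophil granule genes Epx and Prg2 were not called, with log2 fold changes of -1.66 ± 0.87 and -1.22 ± 0.76 and overlapping groups.

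Il4, the defining type 2 cytokine, lay between 0.617 and 0.756 CPM at d6 and between 0.114 and 0.303 CPM at d10, a log2 fold change of -1.86 ± 0.33 (adjusted p = 0.0052, edgeR). Il13, which shares a receptor chain with it, went from 3.43, 2.53 and 2.31 CPM to 0.937, 1.18, 0.873, 0.318 and 0.298 CPM, a change of -1.94 ± 0.44 that was not called without d6 replicate 1 (-1.75). Il33, an alarmin of barrier and stromal cells upstream of both, was not called, with 122 to 144 CPM at d6 and 129 to 197 CPM at d10.

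Retnla, a secreted protein of macrophages exposed to IL-4 or IL-13, was at 40.8, 21.4 and 23.5 CPM at d6. The d10 tumors held 7.0, 10.5, 1.80, 0.955 and 1.18 CPM, lowest in replicates 4 and 5. The log2 fold change was -2.74 ± 0.72 (adjusted p = 0.028, edgeR), and it was not called when d6 replicate 1, 2 or 3 was left out, at -2.39, -2.91 and -2.86. Ccl24, an eotaxin of macrophages, was at 97.2 to 159 CPM at d6, at 77.7, 83.1 and 39.2 CPM in d10 replicates 1 to 3 and at 13.4 and 18.5 CPM in replicates 4 and 5. It was not called with all d10 tumors (-1.46 ± 0.53, adjusted p = 0.087, edgeR), but it was with replicates 4 and 5 alone (-3.01), with all 5 groups in one fit (-1.48) and with all genes that had at least 1 count (-1.46).

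Among ribonucleases of the eosinophil-associated family, 3 fell. Ear2 went from 8.85 ± 2.42 CPM (SD, n = 3) to 1.30 ± 0.442 CPM (SD, n = 5), Ear6 from 1.30 ± 0.580 to 0.182 ± 0.0701 CPM, and Rnase2a from 40.6 ± 10.8 to 8.98 ± 4.57 CPM. Their log2 fold changes were -2.76 ± 0.29, -2.79 ± 0.39 and -2.18 ± 0.40, while Ear1 was not called at 0.84 ± 0.46. These genes are near copies of each other, so the split of uniquely mapped reads among them is uncertain. Mast cell proteases moved the other way. Tpsab1 was at 0.821, 1.04 and 0.633 CPM at d6 and at 5.79, 6.67, 4.27, 3.25 and 4.48 CPM at d10, all above the d6 tumors, with a log2 fold change of 2.55 ± 0.30 (adjusted p = 0.00073, edgeR). Tpsb2, its neighbouring tryptase with a similar sequence, rose by 2.07 ± 0.31. In the mast cell list 4 of 9 tested genes were called higher, against 4.79% of all genes. Kit (0.69 ± 0.20) and Cpa3 (0.65 ± 0.27) were among those not called. The chymases Mcpt4 (1.24 ± 0.23) and Cma1 (1.28 ± 0.27) were not called with d10 replicates 4 and 5 alone, at 0.93 and 0.84, and Cma1 was not called without d6 replicate 1 (1.26) or 3 (1.18).

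**Figure D2:**
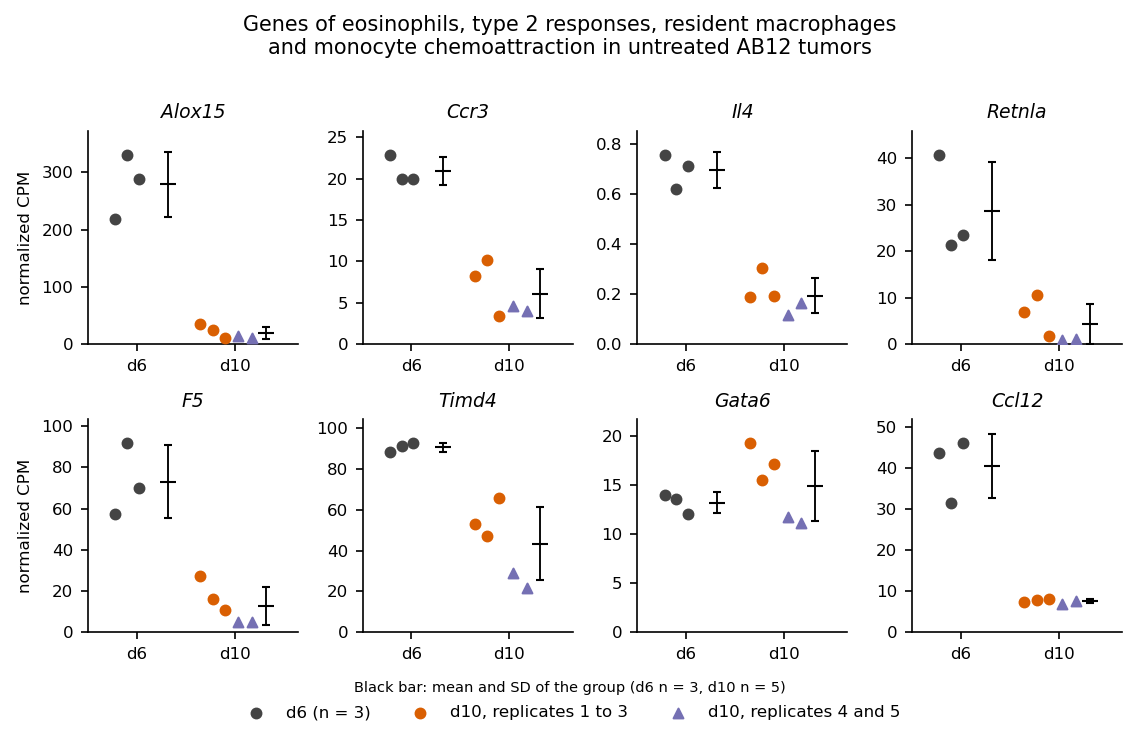
Normalized CPM per tumor on linear axes for 8 genes, with d6 tumors in grey, d10 replicates 1 to 3 in orange and d10 replicates 4 and 5 in purple, and black bars giving the mean and SD of each group. The d10 tumors lie below the d6 tumors for 7 of the 8 genes, while Gata6 overlaps. Alox15, Retnla, F5 and Ccl12 had been chosen for that lack of overlap.

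Of the 25 genes of the resident peritoneal macrophage list, all tested, 6 were called lower (Alox15, F5, Icam2, Selp, Timd4 and Cd5l) and none higher. Of all genes 2.66% were called lower. The median log2 fold change of the list was -0.43. With d6 replicate 2 left out, 3 were called. The list was not uniform, since its summed level lay between 2587 and 3023 CPM at d6 and between 1685 and 3548 CPM at d10. F5, coagulation factor V, was at 57.3, 91.9 and 70.0 CPM at d6 and at 27.4, 16.2, 10.6, 5.10 and 4.82 CPM at d10. The log2 fold change of F5 was -2.51 ± 0.50 (adjusted p = 0.0089, edgeR), -2.01 in replicates 1 to 3 and -3.89 in replicates 4 and 5. Exons of F5 overlap those of Gm16548, and whether counting used strand is not given in the sources used here.

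Timd4, a phosphatidylserine receptor of long-lived resident macrophages, was at 88.3, 91.0 and 92.8 CPM at d6. It was at 52.9, 47.3 and 65.7 CPM in d10 replicates 1 to 3 and at 29.1 and 21.8 CPM in replicates 4 and 5. All d10 tumors were lower, but the call (-1.07 ± 0.30, adjusted p = 0.036, edgeR) was lost with replicates 1 to 3 alone (-0.71) and without d6 replicate 1, 2 or 3 (-1.08, -1.06 and -1.05) or d10 replicate 2, 4 or 5 (-1.11, -0.95 and -0.90). Gata6 itself lay between 12 and 14.0 CPM at d6 and between 11.1 and 19.3 CPM at d10 and was not called (0.18 ± 0.19, adjusted p = 0.55). Icam2, an adhesion molecule of these macrophages and of endothelium, fell by 1.38 ± 0.26 on the log2 scale. Selp, P-selectin, fell by 1.30 ± 0.32, and it was not called without d6 replicate 2 or 3, at -1.24 in both. Cd5l, a secreted scavenger protein, fell by 1.04 ± 0.21, and it was not called with d10 replicates 1 to 3 alone (-0.90) or without d10 replicate 5 (-0.91) or d6 replicate 2 (-0.81).

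Other members of that list differed widely between the d10 tumors. Prg4, a lubricating proteoglycan, was at 117, 158 and 173 CPM at d6, at 106, 39.7 and 34.7 CPM in d10 replicates 1 to 3 and at 7.82 and 7.80 CPM in replicates 4 and 5, so that all d10 tumors lay below all d6 tumors. Marco, a scavenger receptor, was at 19.6 to 24.1 CPM at d6, at 117, 55.3 and 115 CPM in d10 replicates 1 to 3 and at 24 and 16.8 CPM in replicates 4 and 5. Arg1, the arginase of alternatively activated macrophages, was at 949 to 1287 CPM at d6, at 1787, 2467 and 1537 CPM in replicates 1 to 3 and at 712 and 926 CPM in replicates 4 and 5. None of these 3 genes was called with all d10 tumors, with log2 fold changes of -1.93 ± 0.72, 1.57 ± 0.61 and 0.42 ± 0.35. With d10 replicates 1 to 3 alone Prg4 (-1.31) and Marco (2.11) were called, and with replicates 4 and 5 alone Prg4 (-4.27). Prg4 was also called without d10 replicate 1 (-2.74), with all 5 groups in one fit (-1.95) and with all genes that had at least 1 count (-1.94), as was Marco without d10 replicate 5 (1.81).

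General macrophage markers were not called. Adgre1, a surface receptor of most mouse macrophages, lay between 78.3 and 122 CPM at d6 and between 48.3 and 88.4 CPM at d10 (log2 fold change -0.43 ± 0.20). Csf1r, the receptor for the macrophage growth factor, lay between 172 and 194 CPM at d6 and between 187 and 347 CPM at d10 (0.60 ± 0.18).

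The list of lipid-handling and scavenger genes of tumor macrophages held 7 of 25 tested members called higher and none lower, against 4.79% of all genes called higher, with a median log2 fold change of 0.47. Its summed level lay between 7472 and 8697 CPM at d6 and between 10386 and 13436 CPM at d10, without overlap. Apoe, the lipoprotein that carries cholesterol out of macrophages, was at 123, 125 and 205 CPM at d6 and at 559, 872, 380, 621 and 419 CPM at d10. All d10 tumors exceeded all d6 tumors, with a log2 fold change of 1.92 ± 0.30 (adjusted p = 0.0028, edgeR), 2.0 with replicates 1 to 3 and 1.77 with replicates 4 and 5. Abca1, the exporter that loads cholesterol on apolipoproteins and is not a member of that list, was at 15.2, 16.5 and 11.3 CPM at d6 and at 95.4, 129, 88.9, 66.2 and 79.0 CPM at d10, a 6.38-fold higher mean level. Its log2 fold change was 2.67 ± 0.23 (adjusted p = 0.00017, edgeR).

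Among the other members of the list, Stab1, a scavenger receptor of perivascular macrophages, rose by 1.71 ± 0.29 on the log2 scale (1.28 with d10 replicates 1 to 3 and 2.17 with replicates 4 and 5) and Ms4a7, a membrane protein of mature macrophages, by 1.73 ± 0.34. The lysosomal proteases Ctsd and Ctsk rose by 1.27 ± 0.21 and 1.48 ± 0.25. Exons of Stab1 overlap those of Nt5dc2 and exons of Ctsd those of Gm49369. Spp1, osteopontin, lay between 2089 and 2549 CPM at d6 and between 1751 and 2620 CPM at d10 and was not called (-0.05 ± 0.14), and neither were Mrc1 (0.08 ± 0.16) and Cd163 (0.14 ± 0.36).

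Atp6v0d2, a proton pump subunit of osteoclasts and multinucleated macrophages, was at 6.48, 8.16 and 3.20 CPM at d6 and at 63.1, 66.5, 47.5, 35.4 and 27.5 CPM at d10. Its log2 fold change was 3.01 ± 0.39 (adjusted p = 0.0011, edgeR). Clec4n, the C-type lectin dectin-2 that senses fungal glycans, rose from 15.1 ± 2.25 CPM (SD, n = 3) to 85.8 ± 30.5 CPM (SD, n = 5) and Clec4d, a neighbouring C-type lectin, from 9.59 ± 1.80 to 53.2 ± 26.8 CPM, with log2 fold changes of 2.50 ± 0.29 and 2.47 ± 0.40. Hal, the histidine ammonia-lyase that opens histidine breakdown, rose from 4.47 ± 0.661 to 32.5 ± 8.50 CPM (log2 fold change 2.86 ± 0.24, adjusted p = 0.00013, edgeR). F13a1, the transglutaminase subunit of factor XIII made by monocytes and macrophages, rose from 21.0 ± 3.08 to 87.7 ± 12.7 CPM (2.06 ± 0.16).

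Of the 11 tested genes of antigen presentation by MHC class II, 5 were called higher and none lower, against 4.79% of all genes called higher. The median log2 fold change was 0.93. The days did not overlap for 10 of the 11, against 28.4% of all genes. H2-Aa was at 500, 473 and 504 CPM at d6 and at 1113, 1485, 789, 1396 and 976 CPM at d10 (1.23 ± 0.20, adjusted p = 0.0034, edgeR). H2-Eb1 rose by 1.55 ± 0.26 and H2-Ab1 by 1.19 ± 0.19, although H2-Ab1 was not called with d10 replicates 4 and 5 alone (0.89). H2-Eb2 was low, between 0.116 and 0.237 CPM at d6 and between 0.622 and 2.15 CPM at d10 (2.69 ± 0.54). Its change was 2.02 with d10 replicates 1 to 3 and 3.32 with replicates 4 and 5. H2-DMb2, a peptide-loading chain, rose by 1.58 ± 0.36, and it was not called with replicates 1 to 3 alone (0.96) or without d6 replicate 1 (1.53), 2 (1.56) or 3 (1.65). With d10 replicates 4 and 5 alone H2-DMb2 rose by 2.18. Ciita, the coactivator of these genes, lay between 50.1 and 52.7 CPM at d6 and between 84.1 and 118 CPM at d10, a log2 fold change of 0.91 ± 0.12 that was below the fold threshold. The summed level of the T cell list, outside the scope here, was 205 to 224 CPM at d6 and 640 to 760 CPM at d10, with 18 of 22 members called higher, and its part in these changes was not tested.

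The dendritic cell list had 4 of 19 tested members called lower and none higher, against 2.66% of all genes called lower. Ccl17 and Ccl22, chemokines of mature dendritic cells and macrophages that bind Ccr4, were 2 of them. Ccl17 was at 9.39, 5.67 and 4.65 CPM at d6 and at 1.21, 1.55, 0.721, 0.443 and 0.506 CPM at d10, a log2 fold change of -2.89 ± 0.42 (adjusted p = 0.0019, edgeR). Ccl22 fell by 1.74 ± 0.22, from 26.5 ± 2.39 CPM (SD, n = 3) to 7.95 ± 2.48 CPM (SD, n = 5). The others were Ccr7, the lymph node homing receptor (-1.43 ± 0.36), and Mgl2, a lectin of dermal and peritoneal dendritic cells (-1.42 ± 0.37). Neither was called without d6 replicate 1, 2 or 3 (-1.48, -1.47 and -1.33 for Ccr7, and -1.26, -1.39 and -1.57 for Mgl2), and Ccr7 was not called without d10 replicate 1 (-1.36). The change of Mgl2 was -1.01 with d10 replicates 1 to 3 and -2.39 with replicates 4 and 5.

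Of 17 tested CC chemokines, 6 were called lower and 2 higher, against 2.66% and 4.79% of all genes. The summed level of the list went the other way, from 1160 to 1254 CPM at d6 to 1302 to 2391 CPM at d10. Among them were 3 ligands of the monocyte receptor Ccr2. Ccl12 was at 43.7, 31.6 and 46.2 CPM at d6 and at 7.39, 7.84, 8.10, 6.81 and 7.59 CPM at d10, a narrow range 5.37-fold below the d6 mean (-2.42 ± 0.14, adjusted p = 1.9e-05, edgeR). Ccl2 fell from 108 ± 30.8 to 42.0 ± 2.72 CPM (-1.36 ± 0.16) and Ccl7 from 60.4 ± 16.8 to 22.3 ± 1.37 CPM (-1.44 ± 0.16). The genes of type I interferon, which are set aside here, moved in the same direction, with 33 of 40 list members called lower and a summed level of 11607 to 18844 CPM at d6 and 4110 to 5603 CPM at d10, and their part in the chemokine changes was not tested.

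Ccl20, the ligand of Ccr6, fell from between 6.06 and 8.12 CPM to between 0.625 and 1.44 CPM (-3.03 ± 0.28, adjusted p = 0.00025, edgeR). Ccl5 rose from 15.9 to 23.8 CPM at d6 to 115 to 262 CPM at d10 (3.07 ± 0.31) and Ccl4 by 1.24 ± 0.21, both chemokines that T cells and macrophages secrete. Among CXC chemokines outside the interferon list, Cxcl12, which stromal cells make, rose from 31.9, 18.3 and 24.6 CPM to 85.7, 110, 61.1, 114 and 43.1 CPM (1.73 ± 0.33, adjusted p = 0.0071, edgeR). The neutrophil attractants Cxcl1 (-1.48 ± 0.37) and Cxcl5 (-1.43 ± 0.37) fell, and neither was called without d6 replicate 2 (-1.52 and -1.56) or 3 (-1.24 and -1.05). Their changes were -1.12 and -1.05 with d10 replicates 1 to 3, and -2.28 and -2.31 with replicates 4 and 5. The neutrophil marker S100a8 was not called (-0.10 ± 0.65).

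Matrix metalloproteinases cut collagens, elastin and other matrix proteins. Of 33 tested genes of matrix proteases and their inhibitors, 11 were called higher and 1 lower, against 4.79% and 2.66% of all genes. The median log2 fold change was 0.74, and 29 of 33 were positive, against 8863 of 16866 genes tested. The summed level rose from between 1112 and 1201 CPM to between 1876 and 3203 CPM, and without d6 replicate 3 the number called higher was 7. Mmp12, the macrophage elastase on chr9:7344381-7369499, was at 145, 160 and 90.5 CPM at d6. In the d10 tumors it was at 942, 1079, 641, 478 and 430 CPM, a 5.41-fold higher mean (2.44 ± 0.35, adjusted p = 0.0019, edgeR). The change was 2.75 with replicates 1 to 3 and 1.77 with replicates 4 and 5. Exons of Mmp12 overlap those of Mmp1b.

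Mmp2, the gelatinase A of fibroblasts, was at 6.24, 6.60 and 7.45 CPM at d6 and at 29.2, 39.3, 15.3, 41.2 and 18.5 CPM at d10 (2.08 ± 0.34, adjusted p = 0.0033, edgeR). Mmp3, stromelysin-1, was at 2.42, 1.39 and 1.64 CPM at d6 and at 5.06, 6.95, 3.68, 11.3 and 12.1 CPM at d10, highest in replicates 4 and 5 (2.11 ± 0.42). Mmp10, stromelysin-2, rose at levels of 0.130 to 0.328 CPM at d6 and 0.648 to 2.03 CPM at d10 (2.21 ± 0.47). Mmp3 was not called without d6 replicate 3 (2.04) and Mmp10 not without d6 replicate 1 (1.91).

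Mmp13, a collagenase, separated the d10 tumors. It was at 79.8, 70.8 and 59.5 CPM at d6, at 298, 345 and 216 CPM in d10 replicates 1 to 3 and at 85.2 and 118 CPM in replicates 4 and 5. The call (1.60 ± 0.43, adjusted p = 0.030, edgeR) was lost with replicates 4 and 5 alone (0.52) and without d10 replicate 1 (1.44) or 2 (1.34) or d6 replicate 1 (1.70), 2 (1.61) or 3 (1.49). Mmp9, gelatinase B, showed the same split, with 67.9 to 74.3 CPM at d6, 230, 327 and 107 CPM in replicates 1 to 3 and 48.2 and 95.4 CPM in replicates 4 and 5. It was not called with all d10 tumors (1.19 ± 0.53) but was with replicates 1 to 3 alone (1.64) and without d10 replicate 4 (1.42).

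Of the Adamts family, Adamts15 rose by 2.19 ± 0.35 and Adamts7 by 1.66 ± 0.24 on the log2 scale. The inhibitors were not called, with Timp1 at 0.54 ± 0.25, Timp2 at 0.49 ± 0.10 and Timp3 at 0.85 ± 0.14, and neither was Mmp14 (0.87 ± 0.13), which activates the Mmp2 proenzyme. Mmp25, a leukocyte membrane metalloproteinase, was the member called lower, from 12.2 to 15.5 CPM at d6 to 4.12 to 6.66 CPM at d10 (-1.37 ± 0.17, adjusted p = 0.00096, edgeR).

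The metalloproteinase genes Mmp3, Mmp10, Mmp12 and Mmp13 lie near each other on chromosome 9, and their start sites are shown because each has the letters TGANTCA, which AP-1 factors are known to bind, within 63 bases. The windows run 250 bases before to 50 after a RefSeq start site on the plus strand of GRCm38.p6, with the match in capitals, at chr9:7445572-7445871 (Mmp3), chr9:7502092-7502391 (Mmp10), chr9:7347124-7347423 (Mmp12) and chr9:7272264-7272563 (Mmp13).
Mmp3: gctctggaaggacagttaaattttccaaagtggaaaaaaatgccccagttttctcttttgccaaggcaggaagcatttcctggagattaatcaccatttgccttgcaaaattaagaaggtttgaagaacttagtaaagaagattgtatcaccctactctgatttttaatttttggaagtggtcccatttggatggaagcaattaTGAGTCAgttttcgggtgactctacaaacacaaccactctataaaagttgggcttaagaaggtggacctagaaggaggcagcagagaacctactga
Mmp10: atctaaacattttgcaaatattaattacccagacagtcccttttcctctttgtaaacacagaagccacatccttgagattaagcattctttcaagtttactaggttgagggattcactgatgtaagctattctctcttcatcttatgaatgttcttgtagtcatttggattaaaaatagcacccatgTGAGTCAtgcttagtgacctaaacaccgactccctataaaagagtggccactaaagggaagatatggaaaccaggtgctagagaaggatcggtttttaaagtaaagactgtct
Mmp12: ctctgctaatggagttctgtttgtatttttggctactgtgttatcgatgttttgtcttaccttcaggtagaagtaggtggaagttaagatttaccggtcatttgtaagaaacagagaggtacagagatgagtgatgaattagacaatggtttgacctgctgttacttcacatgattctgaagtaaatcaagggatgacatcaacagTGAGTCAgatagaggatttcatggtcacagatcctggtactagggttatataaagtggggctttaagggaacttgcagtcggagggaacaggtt
Mmp13: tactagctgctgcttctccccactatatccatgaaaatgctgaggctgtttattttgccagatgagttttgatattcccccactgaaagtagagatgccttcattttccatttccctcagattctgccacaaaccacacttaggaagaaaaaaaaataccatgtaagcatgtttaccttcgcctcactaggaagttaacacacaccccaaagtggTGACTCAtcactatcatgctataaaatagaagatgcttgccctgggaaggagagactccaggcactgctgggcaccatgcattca
The match begins 46, 63, 44 and 35 bases before the start site in these windows, and Mmp12 has another annotated start whose window holds none. Both strands were searched. The 7 members called higher that have a window in the table had a match in 4 of 8 windows, the 15 other members tested in 0 of 16, and all genes in 2565 of 32851 windows (7.81%). It was 1 of 6 motifs searched, and TATAAA, the TATA box, was also found in 4 of the 8 windows, in 2 of the 16 and in 13.6% of all windows. These genes were chosen for display after their values were seen, and a match is a description of the letters, not a site in use.

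**Figure D3:**
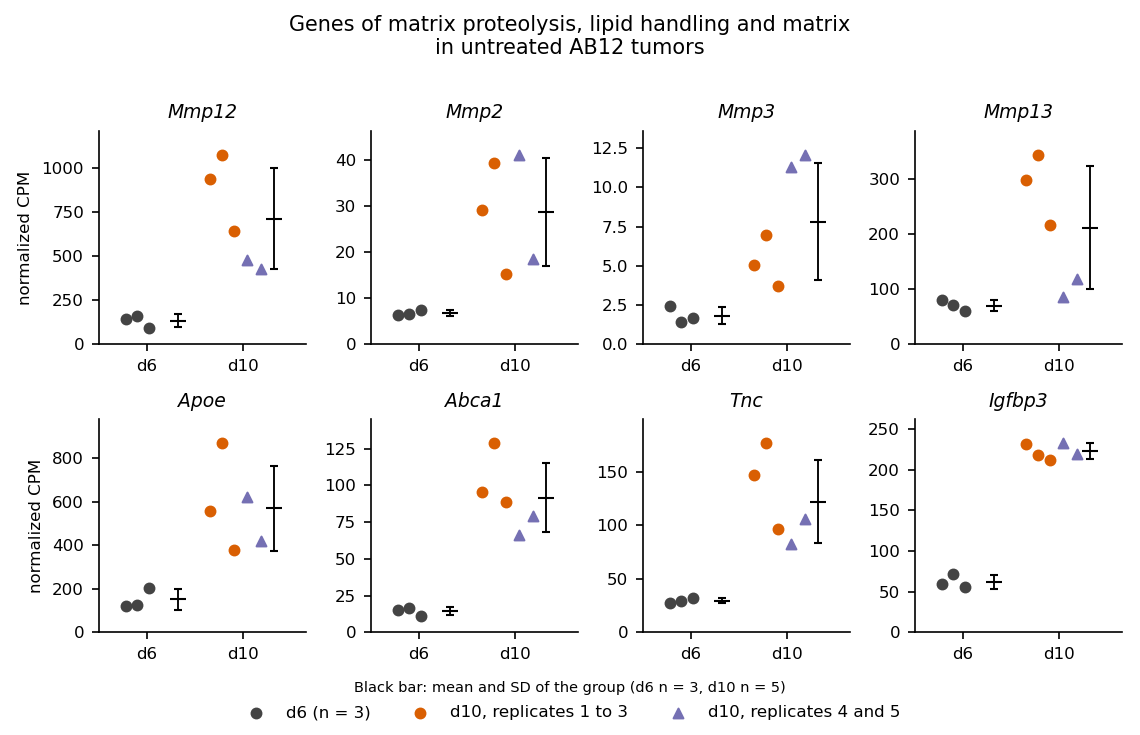
Normalized CPM per tumor on linear axes for 8 genes of matrix proteolysis, lipid handling and matrix, with d6 tumors in grey, d10 replicates 1 to 3 in orange, d10 replicates 4 and 5 in purple and black bars for the mean and SD. All d10 tumors lie above all d6 tumors for each gene, for which Mmp12 and Abca1 had been chosen. For Mmp13 replicates 4 and 5, at 85.2 and 118 CPM, lie close to the d6 tumors.

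Of 30 tested collagen chains, 7 were called higher and none lower, against 4.79% of all genes called higher. The median log2 fold change was 0.49. With d10 replicates 4 and 5 alone 11 were called higher, where 7.41% of all genes were. The fibrillar chain Col1a1 was not among them, with 754 to 802 CPM at d6 and 676 to 1016 CPM at d10 (0.22 ± 0.14). Col12a1, which coats collagen fibrils, was at 13.9, 17.3 and 12.8 CPM at d6 and at 39.8, 40.4, 36.9, 48.0 and 55.1 CPM at d10 (1.59 ± 0.17, adjusted p = 0.00044, edgeR). The transmembrane collagen Col13a1 rose from 0.108 to 0.277 CPM at d6 to 1.16 to 2.23 CPM at d10 (3.19 ± 0.41), and the basement membrane chain Col4a3 by 1.85 ± 0.26.

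Among 45 tested matrix glycoproteins and crosslinking enzymes, 7 were called higher and 2 lower, against 4.79% and 2.66% of all genes. Tnc, tenascin C, which appears in wounds and tumor stroma, was at 27.8, 29.1 and 31.9 CPM at d6 and at 147, 177, 96.8, 82.8 and 106 CPM at d10. The groups did not overlap (2.04 ± 0.25, adjusted p = 0.00086, edgeR). Its relative Tnn, tenascin N, fell at low level, from 0.328 to 0.389 CPM to 0.0190 to 0.0682 CPM (-2.98 ± 0.40). Postn, periostin, fell by 1.17 ± 0.18, and it was not called with replicates 1 to 3 alone (-0.96).

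The fibroblast list was mixed, with 3 of 21 tested members called higher and 3 lower, against 4.79% and 2.66% of all genes. Its median was -0.06. Pdgfra, the receptor that marks fibroblasts, rose from 24.4 ± 1.93 CPM (SD, n = 3) to 66.1 ± 7.78 CPM (SD, n = 5), a log2 fold change of 1.44 ± 0.12 (adjusted p = 0.00016, edgeR). Thy1, which mouse T cells carry as well, rose from 54.0 ± 3.25 to 177 ± 23.8 CPM (1.71 ± 0.13), and the part of T cells in it was not tested. Acta2, the actin of myofibroblasts and smooth muscle, fell by 1.06 ± 0.14 and was not called without d10 replicate 5 (-0.99) or d6 replicate 3 (-0.93).

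In the TGF-beta list 4 of 28 tested members were called higher, against 4.79% of all genes. Among them were Ltbp2, a latent TGF-beta binding protein (2.16 ± 0.24), and Inhbb, an activin chain (1.39 ± 0.24). Inhba, the other activin chain, was at 27.4 to 30.6 CPM at d6, at 129, 113 and 93.6 CPM in d10 replicates 1 to 3 and at 32.2 and 54.2 CPM in replicates 4 and 5. Its call (1.55 ± 0.40, adjusted p = 0.025, edgeR) was lost with replicates 4 and 5 alone (0.57) and without d10 replicate 2 (1.41) or d6 replicate 1 (1.60), 2 (1.54) or 3 (1.52).

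In the insulin-like growth factor list 3 of 17 tested members were called higher, against 4.79% of all genes. Igfbp3, which holds IGF in complexes, was at 59.2, 71.2 and 55.6 CPM at d6 and at 232, 218, 212, 233 and 219 CPM at d10, without overlap (1.85 ± 0.11, adjusted p = 3.1e-05, edgeR). Igf2r, which clears IGF2, rose by 1.34 ± 0.12.

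WNT, Hedgehog and Notch genes held 8 of 31 tested members called higher and 2 lower, against 4.79% and 2.66% of all genes. Their median was 0.80. The WNT antagonist Sfrp2 was at 1.36, 0.830 and 1.46 CPM at d6 and at 4.72, 4.49, 3.38, 8.34 and 2.87 CPM at d10 (1.97 ± 0.38, adjusted p = 0.0076, edgeR). Notch4, a receptor of endothelium, rose by 1.65 ± 0.31. Lgr5, the R-spondin receptor of WNT-responsive cells, fell from 13.7, 9.80 and 8.78 CPM to 4.24, 2.71, 5.81, 4.17 and 4.11 CPM (-1.36 ± 0.24, adjusted p = 0.0046, edgeR).

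Of 34 tested endothelial and angiogenic genes, 4 were called higher and none lower, against 4.79% of all genes called higher. Their median was 0.56. With d10 replicates 4 and 5 alone 11 were called higher, where 7.41% of all genes were. Esm1, a secreted protein of sprouting vessels, was at 0.821, 0.965 and 0.494 CPM at d6 and at 3.30, 2.27, 3.17, 4.21 and 2.58 CPM at d10 (2.03 ± 0.30, adjusted p = 0.0022, edgeR). Cldn5, a tight junction protein of endothelium, rose by 2.48 ± 0.49 at levels below 2 CPM (1.87 with d10 replicates 1 to 3 and 3.05 with replicates 4 and 5). Pecam1 (0.47 ± 0.16) and Vegfa (0.38 ± 0.16) were not called.

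Gc, on chromosome 5, encodes the vitamin D-binding protein of plasma and had the largest decline of the genes named for the size of their change. It was at 40.4, 31.3 and 32.5 CPM at d6 and at 1.12, 1.44, 2.39, 0.989 and 1.88 CPM at d10, a 22.3-fold lower mean level. The log2 fold change was -4.48 ± 0.27 (adjusted p = 3.0e-05, edgeR), -4.40 with replicates 1 to 3 and -4.63 with replicates 4 and 5. Stra6, the membrane receptor that takes up retinol, went from 90.2, 81.8 and 110 CPM to 20.8, 17, 30.1, 26.8 and 24.9 CPM (-1.97 ± 0.18, adjusted p = 0.00021, edgeR). The liver marker Alb was at 0 in 6 of the 8 tumors, but 14 of 16 genes of the liver list had a count. The part of liver RNA in the change of Gc was not tested. In the vitamin and retinoid transport list as a whole 3 of 16 tested members were called lower and 1 higher, against 2.66% and 4.79% of all genes.

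Of 24 tested genes of mesothelial and mesothelioma identity, 2 were called higher and 2 lower, against 4.79% and 2.66% of all genes. Their median was 0.31. Msln, mesothelin, was at 170, 207 and 200 CPM at d6, at 222, 280 and 303 CPM in d10 replicates 1 to 3 and at 475 and 507 CPM in replicates 4 and 5. All d10 tumors were higher, but the change was below the fold threshold (0.89 ± 0.26, adjusted p = 0.044, edgeR), and it was called with replicates 4 and 5 alone (1.34) and without d10 replicate 1 (1.01). Cdh2, N-cadherin, rose by 1.35 ± 0.16 and Calb2 by 1.43 ± 0.33, while Wt1 (0.30 ± 0.20) and Krt19 (0.08 ± 0.20) were not called. Calb2 was not called without d6 replicate 1 (1.31) or 3 (1.36). The members called lower were Upk1b (-1.07 ± 0.28) and Slpi (-1.04 ± 0.27). Both lost the call with d10 replicates 1 to 3 alone (-0.86 and -0.95) and when single tumors were left out, among them d6 replicate 1 (-0.72 and -1.16).

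Of 36 tested cell cycle genes, 2 were called higher and none lower, and 4.79% of all genes were called higher. The list had a median of -0.08, with 22 members negative. The called genes, at levels below 5 CPM, were Cdkn2a (1.38 ± 0.24) and Cdkn2b (1.23 ± 0.24), which encode inhibitors of the G1 kinases. Mki67, a marker of cycling cells, lay between 242 and 334 CPM at d6 and between 261 and 479 CPM at d10 and was not called (0.26 ± 0.21). No gene was called in edgeR among 33 of DNA replication, 24 of cholesterol synthesis, 26 of the unfolded protein response, 12 heat shock genes, 35 of the respiratory chain and 49 cytosolic ribosomal proteins, and none with DESeq2. At an unadjusted p below 0.05 these lists held 10, 2, 18, 4, 7 and 3 genes, in that order, and at an adjusted p below 0.05, whatever the fold, 9, 0, 9, 0, 3 and 0. Of the unfolded protein response genes 24 of 26 were negative, and their summed level lay between 8383 and 8916 CPM at d6 and between 6091 and 6841 CPM at d10. With d10 replicates 4 and 5 alone, 4 ribosomal protein genes were called higher and 4 lower, 1 gene of cholesterol synthesis higher, and 1 each of the respiratory chain and the unfolded protein response lower. The median log2 fold changes of those lists lay between -0.37, for the unfolded protein response, and 0.11, for cholesterol synthesis. Among 35 genes of hypoxia and glycolysis only the glucose transporter Slc2a3 was called (1.02 ± 0.13), against 7.45% of all genes called. Slc2a3 was not called with d10 replicates 1 to 3 alone (0.93) or without d10 replicate 5 (0.93) or d6 replicate 3 (0.95). The call was also lost with the replicate number as a block (0.94), all 5 groups in one fit (0.99), thinned counts (0.98) and protein coding genes alone (0.99).

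C3, the central complement protein, rose from 879 ± 113 CPM (SD, n = 3) to 1909 ± 352 CPM (SD, n = 5), with a log2 fold change of 1.12 ± 0.17 that was below the fold threshold with d10 replicates 4 and 5 alone (0.91). Nos2, the inducible nitric oxide synthase, rose from 288, 348 and 332 CPM to 672, 863, 606, 608 and 767 CPM (1.12 ± 0.15, adjusted p = 0.0011, edgeR). Nt5e, which makes adenosine outside cells, rose from 2.61 ± 0.199 CPM (SD, n = 3) to 7.48 ± 0.586 CPM (SD, n = 5), with a log2 fold change of 1.52 ± 0.15. Il11, a stromal cytokine of the IL-6 family, rose by 1.72 ± 0.31 and Tslp, an epithelial cytokine upstream of type 2 responses, fell by 1.41 ± 0.28.

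Cxcr6 (3.43 ± 0.19), Pdcd1 (3.15 ± 0.27), Havcr2 (2.82 ± 0.21) and Il7r (2.23 ± 0.19), which lymphocytes carry, rose. Ddx60 (-2.20 ± 0.25), Daxx (-2.03 ± 0.24), Nt5c3 (-1.96 ± 0.14), Ms4a4c (-1.95 ± 0.26) and Spats2l (-1.84 ± 0.19), which interferon is known to induce, fell. The names set aside beforehand did not cover these 9 genes.

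The split within d10 touched some of these genes more than others. The 24 genes named for the size of their change had been chosen for a lack of overlap between the days, which fixes their direction in both parts, so that only the sizes are compared here. The decline of F5 was -2.01 with replicates 1 to 3 and -3.89 with replicates 4 and 5, that of Retnla -2.14 and -4.76, and that of Rnase2a -1.75 and -3.22. The rise of Clec4d was 2.82 and 1.70, and that of Clec4e, its relative, 1.56 and 0.40. Clec4e was called with all d10 tumors (1.20 ± 0.33, adjusted p = 0.034, edgeR) but not without d10 replicate 1 (1.20) or 2 (1.02) or d6 replicate 1 (1.13), 2 (1.32) or 3 (1.16).

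**Figure D4:**
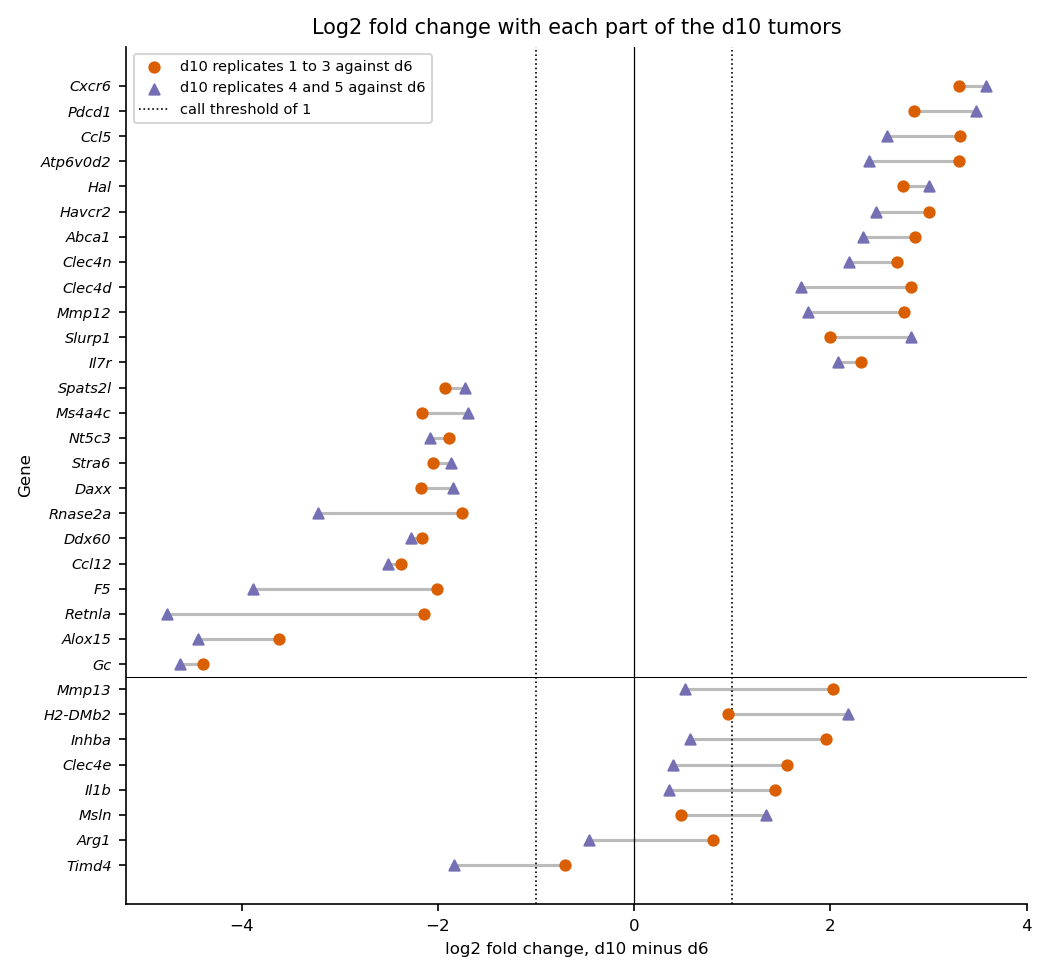
Log2 fold change (d10 minus d6) of the 24 genes named for the size of their change by the rule on called, well expressed, non-overlapping protein coding genes (above the horizontal line) and of 8 genes that separated the d10 tumors (below it), with d10 replicates 1 to 3 in orange and replicates 4 and 5 in purple against the same 3 d6 tumors. The 24 genes were chosen for no overlap between the days, which fixes the side of 0 on which both points lie, and among them Retnla lies at -2.14 and -4.76.

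At d14 the 3 untreated tumors, normalized together with the other 8, are a description of where these genes went. Alox15 was at 10.4, 3.11 and 3.60 CPM, Retnla at 0.363, 0.105 and 0.0397 CPM and Ccr3 at 1.80, 1.09 and 0.516 CPM, all below the d10 means of 18.9, 4.29 and 6.11 CPM on that scale. Gc stayed low at 1.52, 3.71 and 0.526 CPM. Atp6v0d2 was at 14.6, 8.26 and 19.5 CPM and Mmp12 at 385, 242 and 267 CPM, below their d10 means of 48.2 and 717 CPM. Igfbp3 was at 251, 361 and 237 CPM and Nt5e at 19.2, 14.4 and 10.7 CPM, above their d10 means of 224 and 7.52 CPM.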

How the data were processed

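RNA from 8 untreated AB12 tumors (3 at d6, 5 at d10, 1 per mouse) had been extracted with TRIzol and sequenced after KAPA library preparation on an Illumina NextSeq or NovaSeq, with the instrument of each library not given in the sources used here. In their own analysis the authors left out genes that differed between sequencing projects, a filter not applied here because the project of each library is not given in these sources. Read counts per gene were deposited by the authors as whole numbers without normalization, made with TopHat2 2.0.14 and HTSeq per the submitters' processing notes, on GRCm38. Whether counting used strand is not given in the sources used here. All 55450 gene IDs matched Gencode vM21, and 23810 had no count in the 8 tumors.

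Genes passing filterByExpr (16866) were scaled by TMM and tested with the quasi-likelihood test of edgeR 4.0.16 in R 4.3.3, with Benjamini-Hochberg adjustment over all of them. Genes were called at an adjusted p below 0.05 where d10 and d6 also differed by more than 1 on the log2 scale. Summaries and plots used Python 3.11.15, pandas 2.3.3 and matplotlib 3.10.9. In counts simulated for 16835 genes, the fit recovered 98% of 100 genes with a log2 fold of 2 and 100% of 100 with 3. Of the genes called there, 2.5% were false. Changes were simulated only in genes above 1 CPM and without a split within d10. The recovery of smaller changes or of genes at lower levels was therefore not measured. Replicates of a group differed beyond counting noise, with a chi-square per gene of 13.0 to 186 over 13 pairs. The p-values set the difference between the days against the spread of tumors within a day, which at d10 includes the split between its replicates. A difference of instrument or run between the days was not tested.

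Genes were named by rule. These were the 12 per direction with the largest changes among called, protein coding genes with an official symbol, a mean CPM of at least 10 and no overlap between the days, after the genes of the T cell, cytotoxic and type I interferon lists and a set of name patterns were set aside, which left further genes of both kinds in, up to 4 called members per direction of each list, and Gata6, Timd4, Arg1, Spp1, C3, Msln, Wt1, Mki67, Vegfa, Col1a1, Pecam1 and Adipoq whether called or not. The rule gave 143 genes, and 55 further genes were added to the text once their values were known. The 51 gene lists, 5 further lists and the comparison itself were chosen with earlier results of these data known. The alternatives were DESeq2 1.42.0, other filters and normalizations, protein coding genes alone, thinned counts, all groups in one fit, each part of d10, a replicate block and leaving out each tumor. Promoter windows are from RefSeq, 250 bases before to 50 after each start.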

Additional observations from a re-analysis of the deposited data

Results flagged for a closer look

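Of 198 named genes, 14 had a d10 tumor whose distance from the nearest of the other 4 was above the 95% limit of Dixon's test (0.71 of the range), where chance gives about 1 in 20, or 9.9.

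Replicate 4 of d10 was the high tumor for 7 of them. The B cell genes Cd79a and Ms4a1 were at 48.6 and 34.4 CPM there, against 3.07 to 10.0 and 3.26 to 8.20 CPM in the other d10 tumors. The scavenger receptor Cd163 was at 18.6 CPM against 6.95 to 8.84 CPM, and Ms4a4c at 29.4 CPM against 13.3 to 16.9 CPM. Adipoq, an adipocyte hormone, was at 3.18 CPM against 1.52 to 1.96 CPM, Col8a2 at 1.66 CPM against 0.266 to 0.561 CPM and Chga at 1.66 CPM against 0.455 to 0.732 CPM.

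In replicate 3, Ccl20 was at 1.44 CPM against 0.625 to 0.774 CPM, Timp3 at 260 CPM against 179 to 202 CPM and Actn3 at 0.437 CPM against 0.288 to 0.330 CPM. In replicate 2, Ccl4 was at 39.6 CPM against 25.0 to 27.8 CPM and Star at 2.67 CPM against 1.33 to 1.65 CPM. S100a8 was at 50.3 CPM in replicate 1 against 9.53 to 15.4 CPM, and Slc2a3 at 39.3 CPM in replicate 5 against 29.0 to 30.9 CPM.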

How the results depend on the processing

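The 1257 calls became 2794 with d10 replicates 4 and 5 alone (1240 higher, 1554 lower), 2953 by adjusted p alone and 810 to 1377 when 1 tumor was left out (514 to 876 higher, 252 to 501 lower), lowest without d6 replicate 1 or 3. The 1366 genes that differed within d10 became 574 among protein coding genes and 686 to 1193 when 1 tumor was left out, lowest without d10 replicate 4 (686) or 1 (698). Over the same omissions, members called lower numbered 3 to 7 for resident macrophages, 5 to 9 for eosinophils and type 2 and 6 to 7 for CC chemokines. Members called higher numbered 6 to 7 for scavenger macrophages, 4 to 5 for MHC class II, 5 to 10 for collagens (11 with d10 replicates 4 and 5 alone) and 7 to 12 for matrix proteases. Of 161 named genes called, 95 kept the call in all alternatives run, 66 lost it in at least 1, and 0 changed sign. DESeq2 lost 2. The causes were not tested.

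The log2 fold changes of 13 named genes changed sign, and 0 of these genes had been called. With d10 replicates 4 and 5 alone Gata6 was at -0.23, Arg1 at -0.46, Wt1 at -0.06, Mki67 at -0.05, Marco at -0.13 and Mrc1 at -0.23. With d10 replicates 1 to 3 alone Spp1 was at 0.06, Cd79a at -0.53, Ms4a1 at -0.51, Krt19 at -0.17, Cd163 at -0.20 and S100a8 at 0.24. Leaving out 1 tumor gave -0.13 to 0.03 for Spp1, -0.62 to 0.21 for Adipoq, -0.47 to 0.85 for Cd79a, -0.48 to 0.70 for Ms4a1, -0.07 to 0.23 for Krt19, -0.23 to 0.39 for Cd163, -0.01 to 0.18 for Mrc1 and -0.76 to 0.77 for S100a8.

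Replicate numbers are shared by d6 and d10, and the labels do not say whether they pair the tumors. Deviations of same-numbered tumors correlated at 0.105, -0.079 and -0.059. Those of differently numbered tumors correlated at -0.152 to 0.168, so with so few tumors the check cannot decide on pairing. With the replicate number as a block, where d10 replicates 4 and 5 have no d6 partner and do not inform the difference, 1399 genes were called, 911 higher and 488 lower, and 19 named genes lost the call. Under the block Spp1 was at 0.06, Cd79a at -0.63, Ms4a1 at -0.60, Krt19 at -0.15, Cd163 at -0.16 and S100a8 at 0.19.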

Other observations

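Genes of cornified and squamous epithelium, a list added after the values were seen, had 11 of 26 tested members called higher at d10 and none lower. Of all genes 4.79% were called higher. The median log2 fold change of these members was 1.20. Their summed level was 281 to 328 CPM at d6 and 393 to 586 CPM at d10. Dsc2, a desmosomal cadherin, was at 0.238, 0.270 and 0.178 CPM at d6 and at 4.24, 7.22, 5.79, 3.51 and 7.16 CPM at d10, without overlap (4.60 ± 0.36, adjusted p = 9.4e-05, edgeR). Slurp1, a secreted protein of keratinocytes, went from 6.00 ± 1.61 CPM (SD, n = 3) to 31.6 ± 12.1 CPM (SD, n = 5), and Dmkn, dermokine, from 2.55 ± 0.538 to 10.7 ± 1.66 CPM. Sbsn (1.79 ± 0.30), Sprr1b (1.65 ± 0.31), S100a7a (1.75 ± 0.22) and Tgm5 (2.82 ± 0.51) also rose on the log2 scale. Krt6a had no count in the d6 tumors and lay between 0.152 and 0.330 CPM at d10. Exons of Slurp1 overlap those of Them6 and exons of Sbsn those of Tmem147os.

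Further lists, also added with the values known, concerned cholesterol export, iron and lysosomes, and their counts are descriptions only. Of 16 tested targets of the liver X receptors, sterol-sensing transcription factors, 4 were called higher and none lower, against 4.79% of all genes called higher. They included Abcg1 (1.20 ± 0.16) and Mylip (1.33 ± 0.25) beside Abca1 and Apoe, which were already named above. Of 19 genes of iron and heme handling 4 were called higher, against the same 4.79%. Fth1, the ferritin heavy chain, was at 1572, 1703 and 1429 CPM at d6 and at 4190, 5517, 2911, 3263 and 2662 CPM at d10 (1.24 ± 0.23, adjusted p = 0.0066, edgeR), but it was not called with d10 replicates 4 and 5 alone (0.91), and ferritin pseudogenes make its read share uncertain. Slc48a1, a heme transporter, rose by 1.33 ± 0.16. Of 51 lysosomal genes 7 were called higher, again against 4.79% of all genes. Among them were Psap, the saposin precursor, from 2082 ± 83.9 to 4682 ± 1256 CPM, Pld3 (1.36 ± 0.19) and Ctss (1.40 ± 0.27). Ctss was not called with d10 replicates 4 and 5 alone (0.87). The added list of lipoxygenases, eosinophil granule proteins and ribonucleases had 4 of 9 tested members called lower, against 2.66% of all genes. Its summed level was 322 to 421 CPM at d6 and 73.9 to 112 CPM at d10. That list covers the families of genes already named above, Alox15 among them, so its count and sum are no separate support.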
